A study of Mus musculus with 4 samples.

Results

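Cholesterol synthesis was followed through 8 genes in dissociated cells of the thoracic aorta of mice. They are Hmgcs1, Idi1, Fdps, Fdft1, Sqle, Cyp51 and Dhcr7, which encode enzymes of the pathway, and Insig1, which encodes a regulator of it. The genes were chosen by name, with earlier results of these data known. All 8 were present among the 17524 genes of the deposited count tables. Their counts were summed within each library over the cells of 3 marker gates: smooth muscle cells (SMC gate, at least 3 Myh11 UMIs), fibroblasts (at least 10 UMIs of Dcn plus Lum and at most 1 of Myh11) and phagocytes (at least 10 UMIs of Lyz2, C1qa and C1qb together and fewer than 10 of Dcn plus Lum). A UMI is a molecular barcode that marks 1 captured RNA molecule.

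The study held 4 libraries, 1 per group, each from the pooled aortas of 3 mice: wild type given saline, wild type given angiotensin II, Sting-KO given saline and Sting-KO given angiotensin II. Sting is the adaptor protein of the cytosolic DNA-sensing pathway, and the knockout was in the whole animal. The angiotensin II animals had a high fat diet for 5 weeks with the infusion over 7 days, and the saline animals had a normal diet, so infusion and diet cannot be told apart. In what follows, WT and KO name the genotype on the label and AngII names the infusion together with the diet. Fat around the vessel was removed before enzymatic digestion, and the cells were sorted for viability. With 1 library per group no difference had a replicate check and no test was made. The 95% intervals given cover counting error only.

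Cells build cholesterol from acetyl-CoA by way of mevalonate, the isoprenoid diphosphates, squalene and lanosterol. The transcription factor SREBP-2, encoded by Srebf2, raises the genes of the pathway when sterols in the endoplasmic reticulum are low, and the INSIG proteins hold SREBP-2 in that membrane with its escort SCAP when sterols are plentiful. In the artery wall, cholesterol taken up from lipoproteins and cholesterol made in the cell supply the same pool.

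The regulatory stretches are shown because the 8 genes are classed together for their shared control by SREBP-2, which binds sterol regulatory elements and commonly works beside the factor NF-Y at CCAAT boxes. RefSeq promoter windows of build GRCm38.p6, 250 bases before to 50 after a start, matched 5 of the 8 genes in 7 windows; those for Sqle, Fdft1 and Fdps were not used here. Capitals mark the CCAAT box, read on either strand, in every sequence, the sterol regulatory element TCACCCCAC in Hmgcs1 and the E-box CACGTG in Insig1. The Hmgcs1 stretch is chr13:119690101-119690350 and the Insig1 stretch is chr5:28071162-28071362, both on the plus strand and both upstream of the start. The shorter sites are chr5:4104710-4104739 (minus strand) for Cyp51, chr13:8885548-8885577 and chr13:8885579-8885608 (plus strand) for Idi1, and chr7:143830116-143830145 and chr7:143830152-143830181 (plus strand) for Dhcr7.
Hmgcs1 upstream: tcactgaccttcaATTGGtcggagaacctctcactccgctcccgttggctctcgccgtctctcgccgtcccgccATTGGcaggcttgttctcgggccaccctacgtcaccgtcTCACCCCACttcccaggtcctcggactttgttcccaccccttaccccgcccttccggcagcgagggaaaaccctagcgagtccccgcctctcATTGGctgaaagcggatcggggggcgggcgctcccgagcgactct
Insig1 upstream: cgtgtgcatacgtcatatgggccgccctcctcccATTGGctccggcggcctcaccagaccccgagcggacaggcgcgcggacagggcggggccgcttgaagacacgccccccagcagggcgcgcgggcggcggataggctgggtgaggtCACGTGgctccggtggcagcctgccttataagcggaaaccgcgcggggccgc
Cyp51 site: ccgctgtccgccaCCAATctggtcctgaga
Idi1 site, distal: ttgcctccagctgATTGGcgagcccgggca
Idi1 site, proximal: ggtccaaggtgccATTGGctggcgaccgac
Dhcr7 site, distal: ctcactgccttcaCCAATcacaggacgcag
Dhcr7 site, proximal: aaatccacttccgATTGGtcgtctgtgacc

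All 5 genes with a window had at least 1 CCAAT on either strand (Dhcr7 in 1 of its 3 windows), which 37.4% of the 32851 promoter windows of the same length held. In Hmgcs1 the element TCACCCCAC began 137 bases upstream of the start, between CCAAT boxes 176 and 45 bases upstream. The searched form TCACNCCAC was found in Hmgcs1 alone of the 5 and in 1.24% of all windows. Its shorter form CACNCCAC, which lies inside it, was found in Hmgcs1 and Insig1 and in 6.24% of all windows. The E-box CACGTG was found in Insig1 and Dhcr7 (7.15% of all windows), and the GC box GGGCGG in all 5 genes (35.7% of all windows). All motifs were searched on both strands. A match is a description of the letters, not a site shown to be bound.

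The tables held 8495 to 12053 cells and 60064038 to 94698727 UMIs per library, with a median of 5888 to 9938 UMIs per cell. Both AngII libraries were deeper per cell than both saline libraries. The SMC gate held 7563, 5906, 10372 and 5668 cells in WT with saline, WT with AngII, KO with saline and KO with AngII, the fibroblast gate 1021, 1698, 506 and 1880, and the phagocyte gate 285, 705, 83 and 561. All later series of 4 values follow this order. The smooth muscle markers not used by the gate summed to 34905 to 43984 UMIs per 1000000 (CPM) in the SMC gate, 1285 to 5491 in the fibroblast gate and 5369 to 7824 in the phagocyte gate. Acta2, a smooth muscle actin, stood in the phagocyte gate at 15.6 to 17.4% of its SMC level in every library, so those cells carried some smooth muscle RNA. In the fibroblast gate it stood at 4.13, 3.49, 12 and 5.99%, highest in KO saline. The part of smooth muscle RNA in the fibroblast and phagocyte values was not tested. Between 3.32 and 3.88% of the barcodes of a library recurred in another library. Tmem173, which encodes Sting, had 105, 637, 102 and 578 UMIs (1.75, 7.03, 1.33 and 6.10 CPM of all cells). The 3′ tags may lie outside the altered part of the gene, so these counts check neither the KO label nor the WT label.

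Together the 8 genes were higher in KO than in WT in each of the 3 gates. They were also higher in AngII than in saline in both genotypes of the SMC gate and in KO fibroblasts. In the SMC gate their sum was 137, 216, 190 and 491 CPM. The fibroblast gate sum was 89.4, 112, 181 and 356 CPM, and in the phagocyte gate 83.2, 121, 227 and 261 CPM. WT saline was the lowest library in every gate. KO AngII stood above WT AngII by 2.27-fold in the SMC gate, 3.17-fold in the fibroblast gate and 2.16-fold in the phagocyte gate. AngII against saline gave 1.58-fold in WT and 2.58-fold in KO in the SMC gate, 1.25-fold and 1.96-fold in the fibroblast gate, and 1.45-fold and 1.15-fold in the phagocyte gate. The last, in KO phagocytes, had a log2 ratio of 0.20 (−0.08 to 0.50). Insig1 was the 1 member at least 1.5-fold lower there, at −0.98, while 5 of the 8 members were at least 1.5-fold higher. In the SMC gate the KO log2 ratio of 1.37 was smaller at equal depth. It was 0.87 (0.81 to 0.93) in cells thinned to 3000 UMIs and 0.81 (0.76 to 0.86) in cells of 5000 to 10000 UMIs. The WT log2 ratio of 0.66 in that gate became 0.60 (0.52 to 0.68) and 0.45 (0.39 to 0.52). In WT fibroblasts the log2 ratio of 0.33 did not hold at equal depth: it was −0.036 (−0.28 to 0.21) in cells thinned to 3000 UMIs and −0.078 (−0.35 to 0.21) in cells of 5000 to 10000 UMIs. In WT phagocytes the log2 ratio was 0.54 (0.27 to 0.82), and 0.29 (−0.13 to 0.73) in cells of 5000 to 10000 UMIs. KO against WT in saline gave 1.39-fold, 2.03-fold and 2.73-fold in the same order of gates, or 0.47, 1.02 and 1.45 on the log2 scale. In cells of 5000 to 10000 UMIs these were 0.43 (0.38 to 0.49), 0.63 (0.28 to 0.97) and 1.63 (1.09 to 2.17). Insig1 was the 1 member with at least 50 UMIs in the phagocyte gate for this comparison. The phagocyte gate of KO saline held only 83 cells.

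**Figure D1:**
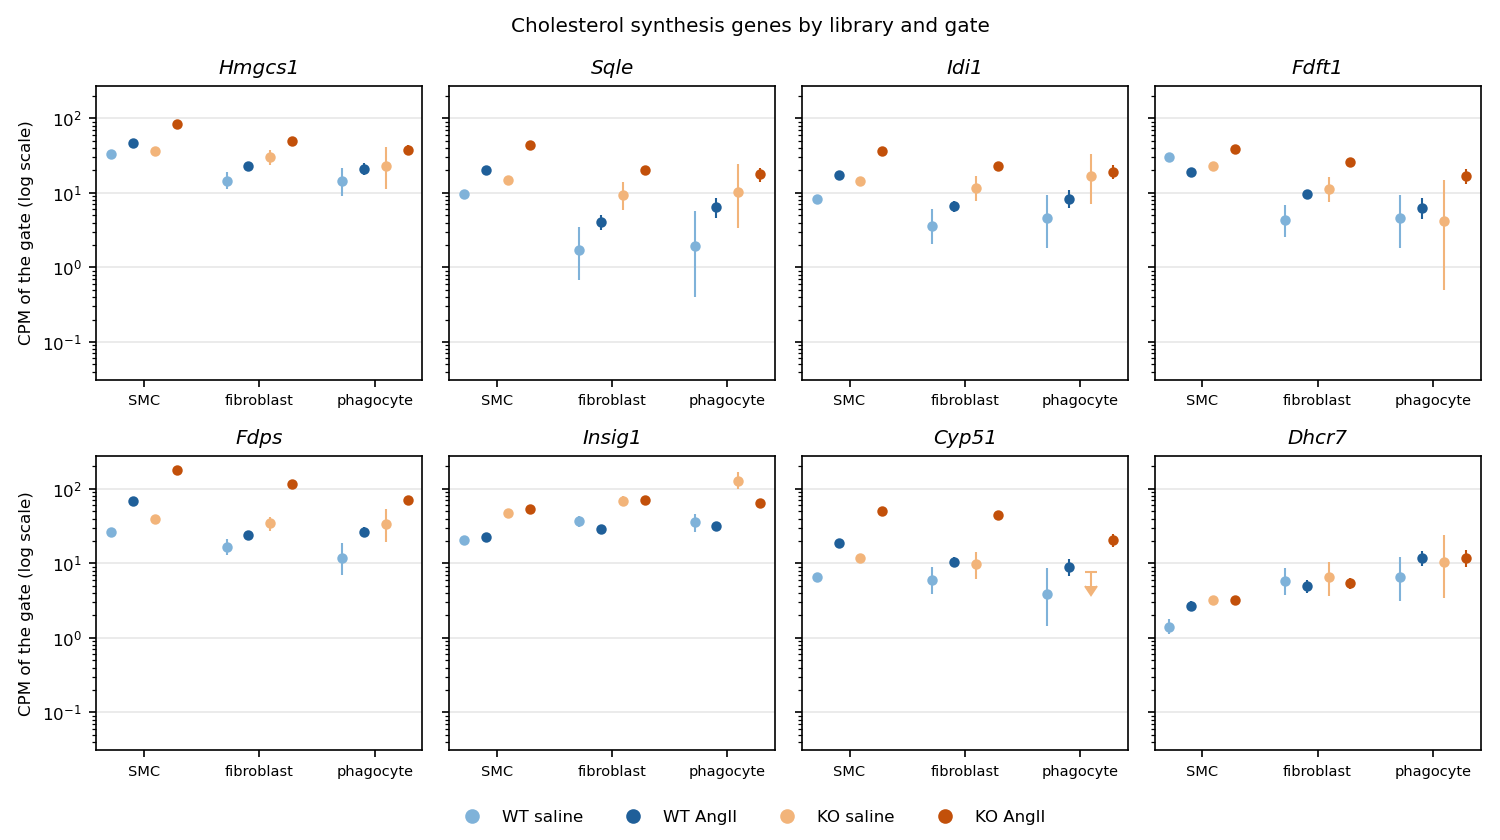
Level of each of the 8 genes (CPM, log axis) in the 4 libraries and 3 gates, with bars for the 95% Poisson interval and an arrow where no UMI was counted. KO AngII is the highest point for most genes, while Dhcr7 in the SMC gate is about level in KO saline (3.19 CPM) and KO AngII (3.20 CPM).

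Hmgcs1 encodes the cytosolic enzyme that makes HMG-CoA, the precursor of mevalonate. It lies on chr13:119690379-119708260 (plus strand; GENCODE vM21 annotation of GRCm38.p6, as for all genes below). SMC gate levels of Hmgcs1 were 33.1, 46.8, 36.5 and 84.3 CPM. The saline libraries were close to each other and KO AngII stood apart. The log2 ratio of AngII to saline was 0.50 in WT (0.41 to 0.58) and 1.21 in KO (1.14 to 1.28), and that of KO to WT was 0.85 in AngII (0.78 to 0.91) and 0.14 in saline (0.05 to 0.23). Fibroblast gate levels of Hmgcs1 were 14.6, 23.2, 30.3 and 49.4 CPM, with a KO to WT log2 ratio of 1.09 in AngII (0.93 to 1.25) and 1.06 in saline (0.55 to 1.57). Here both KO libraries were above both WT libraries. Phagocyte gate levels were 14.4, 21.0, 22.9 and 38.1 CPM, from 11 UMIs in KO saline to 185 in KO AngII. The KO to WT log2 ratio in AngII there was 0.86 (0.53 to 1.19).

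Idi1 and Fdps make the isoprenoid diphosphates. Idi1 (chr13:8885501-8892451, plus strand) isomerises isopentenyl diphosphate, and Fdps (chr3:89093588-89101959, minus strand) joins these units into farnesyl diphosphate, where the sterol branch parts from the branches that feed ubiquinone, dolichol and protein prenylation. In the SMC gate Idi1 measured 8.38, 17.2, 14.3 and 36.4 CPM, with log2 ratios of AngII to saline of 1.04 in WT (0.88 to 1.20) and 1.35 in KO (1.24 to 1.46). KO to WT was 1.08 in AngII (0.97 to 1.18) and 0.77 in saline (0.61 to 0.93). Fibroblast gate levels of Idi1 were 3.65, 6.59, 11.7 and 23.3 CPM, and its KO to WT log2 ratio in AngII was 1.82 (1.53 to 2.12). Phagocyte gate levels of Idi1 were 4.59, 8.40, 16.7 and 19.2 CPM, with 1.19 (0.69 to 1.70) for the same ratio. Both KO libraries were above both WT libraries in the fibroblast and phagocyte gates, the saline values there resting on 7 to 29 UMIs.

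Fdps and Cyp51 had the largest ratios of AngII to saline in KO among the 8 genes in the SMC gate. Levels of Fdps there were 26.7, 68.6, 39.6 and 180 CPM. AngII to saline was 1.36 in WT (1.28 to 1.45) and 2.18 in KO (2.12 to 2.24) on the log2 scale, and KO to WT was 1.39 in AngII (1.34 to 1.44) and 0.57 in saline (0.48 to 0.66). Both AngII libraries were above both saline libraries. The fibroblast gate gave Fdps levels of 16.5, 24.1, 34.3 and 116 CPM, and KO AngII stood far above the other 3 libraries. There AngII to saline was 0.54 in WT (0.17 to 0.93) and 1.76 in KO (1.44 to 2.08), and KO to WT in AngII was 2.27 (2.12 to 2.42). Fdps in the phagocyte gate was at 11.8, 26.7, 33.4 and 71.5 CPM, with a KO to WT log2 ratio in AngII of 1.42 (1.15 to 1.69). The annotation holds 7 processed pseudogene copies of Fdps, alike over 90.5 to 99.2% of 123 to 480 bases of its 3′ end, and the read-through gene Gm43738, which shares that end on the same strand. Gm43738 had 3 UMIs in the SMC gate of WT saline and 0 in all other gates and libraries. Idi1 has 4 such copies, and the tables held none of them. The sources used here do not say how the authors' counting treated reads shared with these copies, so both genes' levels are uncertain to that extent.

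Fdft1 and Sqle carry out the first committed steps towards sterols. Fdft1 (squalene synthase, chr14:63145150-63179578, minus strand) joins farnesyl diphosphate into squalene, and Sqle (squalene epoxidase, chr15:59315077-59331192, plus strand) oxidises squalene at a rate-limiting step. Fdft1 was the one gene of the 8 at least 1.5-fold lower with AngII in WT in the SMC gate. Its levels there were 30.4, 19.2, 23.2 and 38.7 CPM. AngII to saline was −0.67 in WT (−0.77 to −0.56) and 0.74 in KO (0.65 to 0.83) on the log2 scale, so the 2 genotypes moved in opposite directions. KO to WT was 1.01 in AngII (0.91 to 1.11) and −0.39 in saline (−0.49 to −0.29). The WT value was −0.56 under TMM scaling, just inside 1.5-fold. The KO value depended on cell depth: in cells thinned to 3000 UMIs the KO ratio of AngII to saline was 0.29, and in cells of 5000 to 10000 UMIs it was 0.17.

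In the fibroblast gate Fdft1 did not show that split, with 4.37, 9.55, 11.3 and 26.0 CPM and AngII to saline log2 ratios of 1.13 in WT (0.42 to 1.92) and 1.20 in KO (0.66 to 1.80). Fdft1 in the phagocyte gate was at 4.59, 6.22, 4.17 and 16.7 CPM, and its KO to WT log2 ratio in AngII was 1.42 (0.86 to 2.01). Fdft1 overlaps Ctsb, the gene of the protease cathepsin B, in the annotation, and the sources used here do not say whether the counting used strand. Ctsb in the SMC gate was at 536, 608, 524 and 508 CPM, with a KO to WT log2 ratio in AngII of −0.26, so its levels did not follow those of Fdft1.

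Sqle in the SMC gate measured 9.68, 20.3, 15.1 and 44.3 CPM. AngII to saline was 1.07 in WT (0.92 to 1.22) and 1.56 in KO (1.45 to 1.66) on the log2 scale, and KO to WT was 1.12 in AngII (1.03 to 1.22) and 0.64 in saline (0.48 to 0.79). Sqle in the fibroblast gate was at 1.70, 4.02, 9.29 and 20.5 CPM. That gave a KO to WT log2 ratio in AngII of 2.35 (1.99 to 2.73), the largest of the 8 genes in any gate for that comparison. Both KO libraries were again above both WT libraries, although WT saline held only 7 UMIs. Sqle in the phagocyte gate was at 1.97, 6.38, 10.4 and 17.7 CPM, with 1.48 (0.92 to 2.05) for KO to WT in AngII.

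Cyp51 and Dhcr7 act after lanosterol. Cyp51 (chr5:4081145-4104746, minus strand) demethylates lanosterol, and Dhcr7 (chr7:143823145-143848410, plus strand) reduces the immediate precursor of cholesterol, which is also the precursor of vitamin D. SMC gate levels of Cyp51 were 6.63, 19.0, 11.8 and 50.6 CPM, with AngII to saline log2 ratios of 1.52 in WT (1.34 to 1.69) and 2.10 in KO (1.99 to 2.21). KO to WT was 1.41 in AngII (1.32 to 1.51) and 0.83 in saline (0.65 to 1.02). Fibroblast gate levels of Cyp51 were 6.08, 10.5, 9.70 and 44.2 CPM. There KO AngII stood apart from the other 3 libraries, with a KO to WT log2 ratio in AngII of 2.07 (1.85 to 2.30). Phagocyte gate levels of Cyp51 were 3.93, 8.86, 0 and 20.6 CPM. For the ratio, the 0 UMIs of KO saline were set to 3 UMIs (6.25 CPM in that gate of that library). KO AngII then stood 3.30-fold above KO saline, a value that rests on this setting and is not a lower limit. On the log2 scale it was 1.72, and 0.98 to 1.78 over the alternative settings. Cyp51 overlaps Akap9, an anchoring protein gene, which was at 61.1, 53.0, 50.2 and 47.5 CPM in the SMC gate.

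Dhcr7 did not follow the other enzymes in AngII. In the SMC gate it measured 1.42, 2.66, 3.19 and 3.20 CPM, from 75 to 225 UMIs. WT saline was the low library, and the other 3 lay near each other: AngII to saline was 0.91 in WT (0.51 to 1.32) and 0.00 in KO (−0.28 to 0.29) on the log2 scale. KO to WT was 0.27 in AngII (−0.03 to 0.57), an interval that holds 0, and 1.17 in saline (0.79 to 1.57). Dhcr7 in the fibroblast gate was at 5.83, 4.92, 6.46 and 5.40 CPM, with KO to WT in AngII at 0.13 (−0.27 to 0.54). Phagocyte gate levels of Dhcr7 were 6.55, 11.7, 10.4 and 11.7 CPM, with KO to WT in AngII at 0.01 (−0.51 to 0.53). These intervals leave room for differences of up to about 1.5-fold in either gate.

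Insig1 (chr5:28071363-28078662, plus strand) encodes the membrane protein that retains SCAP with SREBP-2, and is itself raised by SREBP-2. In the SMC gate it separated by genotype more than by treatment. SMC gate levels were 20.7, 22.3, 46.7 and 54.3 CPM, with both KO libraries more than 2-fold above both WT libraries. KO to WT was 1.28 in AngII (1.19 to 1.37) and 1.17 in saline (1.07 to 1.27) on the log2 scale. AngII to saline was 0.11 in WT (−0.01 to 0.22) and 0.22 in KO (0.15 to 0.29). The KO value turned to −0.23 (−0.39 to −0.07) after thinning to 3000 UMIs and was 0.13 (0.0018 to 0.25) in cells of 5000 to 10000 UMIs. In those cells KO to WT was 1.03 in AngII (0.86 to 1.21) and 0.90 in saline (0.76 to 1.04). Fibroblast gate levels of Insig1 were 36.7, 29.2, 68.3 and 71.1 CPM, with KO to WT at 1.28 in AngII (1.14 to 1.43) and 0.90 in saline (0.57 to 1.22). In fibroblast gate cells of 5000 to 10000 UMIs the saline value was 0.25 (−0.36 to 0.86), and AngII to saline in KO was 1.16 (0.71 to 1.64). After thinning to 3000 UMIs these were 1.02 (0.56 to 1.48) and −0.12 (−0.48 to 0.24), so the fibroblast pattern depended on the setting. Insig1 in the phagocyte gate was at 35.4, 31.7, 129 and 65.6 CPM, and KO saline was the highest library. There KO to WT was 1.05 in AngII (0.79 to 1.31) and 1.87 in saline (1.32 to 2.42), and AngII to saline in KO was −0.98 (−1.38 to −0.56).

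**Figure D2:**
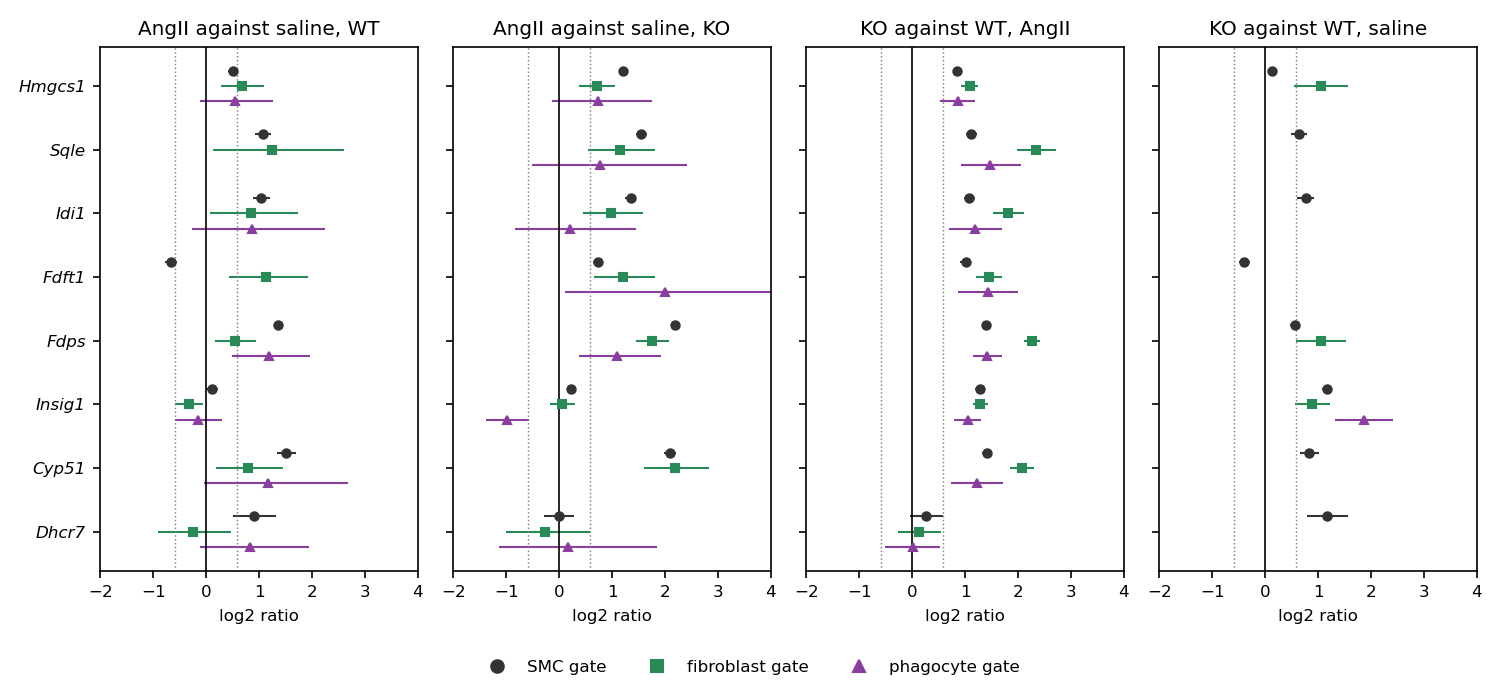
Log2 ratio of each of the 8 genes (vertical axis) for the 4 comparisons and 3 gates, with bars for the 95% counting interval and dotted lines at 1.5-fold; genes under 50 UMIs over both libraries or with a library at 0 are not drawn. In KO against WT with AngII, 7 genes lie above the upper dotted line in every gate, and Dhcr7 lies between the lines.

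Counts of genes past 1.5-fold were read against the share of all genes with at least 50 UMIs over both libraries. For AngII against saline in WT, 5 of 8 members were higher and 1 was lower in the SMC gate, where 13.1% of 12709 genes were higher and 16.6% lower. In the fibroblast gate 5 of 8 were higher and 0 lower (15% and 21.4% of 11037 genes), and in the phagocyte gate 4 of 6 measured members were higher and 0 lower (13.5% and 16.1% of 8611 genes). The fibroblast count did not hold at matched depth: in cells of 5000 to 10000 UMIs 2 of 5 measured members were higher, and after thinning 0 of 4 were. In thinned fibroblast gate cells the summed log2 ratio in WT was −0.04 (−0.28 to 0.21).

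For AngII against saline in KO, 6 of 8 members were higher and 0 lower in the SMC gate (10.8% and 18.9% of 12827 genes). The 2 others, Insig1 and Dhcr7, were within 1.5-fold. The fibroblast gate also gave 6 higher and 0 lower of 8 (14.4% and 29.4% of 11002 genes), and the phagocyte gate 5 higher and 1 lower of 8 (16.5% and 15.9% of 7415 genes). The lower gene in the phagocyte gate was Insig1. Medians over the members were 1.28, 1.06 and 0.75 on the log2 scale in the 3 gates, beside all-gene medians of −0.17, −0.20 and 0.01. The WT medians were 0.97, 0.73 and 0.85, beside −0.11, −0.12 and −0.07.

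For KO against WT with AngII, 7 of 8 members were higher and 0 lower in each gate. The shares of all genes were 5.37% higher and 5.95% lower in the SMC gate (of 12766), 6.26% and 15.6% in the fibroblast gate (of 11737), and 4.02% and 6.48% in the phagocyte gate (of 9294). The member outside 1.5-fold was Dhcr7 in all 3 gates. Member medians were 1.10, 1.63 and 1.20 on the log2 scale, beside all-gene medians of −0.05, −0.08 and 0.02. In cells of 5000 to 10000 UMIs the counts were 6 of 8, 7 and 6 measured members, and the summed log2 ratio was 0.79 (0.73 to 0.85) in the SMC gate, 1.78 (1.63 to 1.92) in the fibroblast gate and 1.32 (1.12 to 1.52) in the phagocyte gate. Hmgcs1 was the SMC gate gene that left the count, at 0.53. Leaving out the phagocyte gate cells that also passed the SMC gate kept 7 of 8 members higher, with a summed log2 ratio of 1.17 (1.02 to 1.33). This comparison sets 1 library against 1, so genotype and any difference between the pools of mice or library preparations cannot be told apart.

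**Figure D3:**
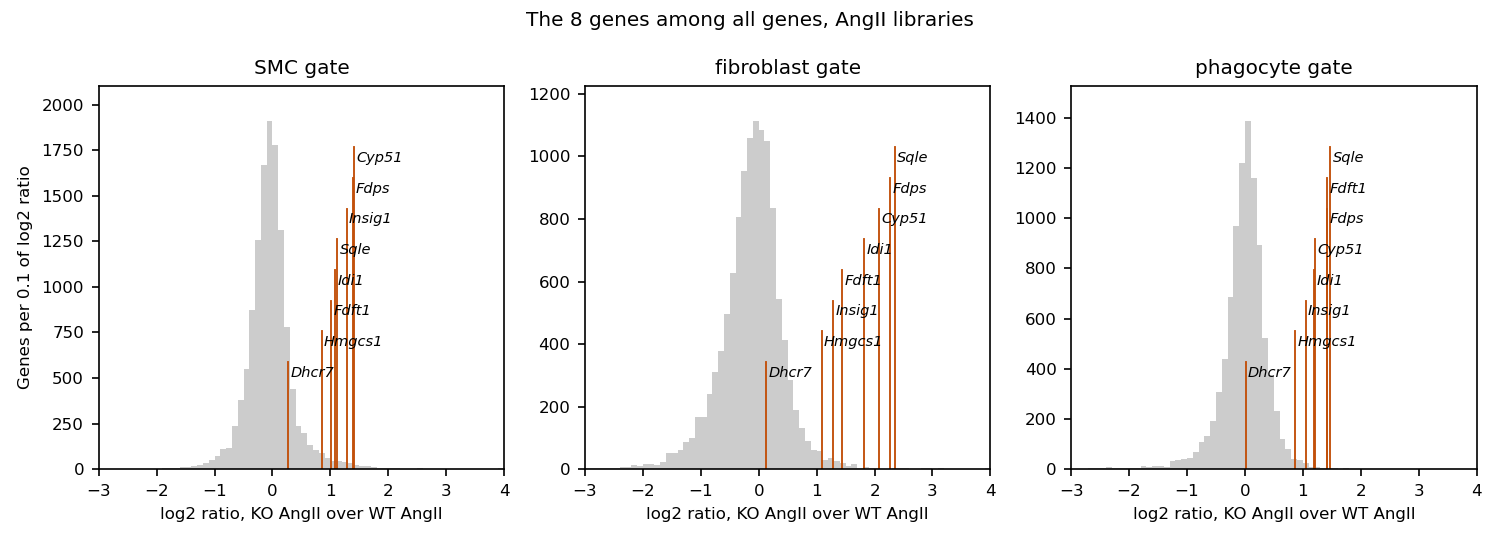
Number of genes (vertical axis) by log2 ratio of KO AngII to WT AngII in each gate, for genes with at least 50 UMIs over both libraries, with the 8 members marked. Of 8 members, 7 lie to the right of 1.5-fold in each gate, where 5.37, 6.26 and 4.02% of all genes lie.

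For KO against WT in saline, 5 of 8 members were higher and 0 lower in the SMC gate (7.47% and 6.36% of 12599 genes). These were Dhcr7, Insig1, Cyp51, Idi1 and Sqle, while Fdps was at 0.57, just under 1.5-fold, and Fdft1 was lower in KO. Among fibroblast gate cells 3 of 3 measured members were higher and 0 lower (11% and 9.98% of 8700 genes), namely Hmgcs1, Fdps and Insig1. In the phagocyte gate Insig1 alone was measured and was higher, and 0 were lower (8.07% and 12% of 4562 genes). Few UMIs in the saline fibroblasts and phagocytes limited this comparison. The comparisons share libraries with each other, so their values stand side by side and are not independent.

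The difference between the KO and WT ratios of AngII to saline was taken per gene, as KO minus WT on the log2 scale. For SMC gate cells it was 1.41 for Fdft1 (1.26 to 1.55), 0.82 for Fdps (0.71 to 0.92), 0.71 for Hmgcs1 (0.60 to 0.82), 0.58 for Cyp51 (0.38 to 0.79), 0.48 for Sqle (0.30 to 0.66) and 0.31 for Idi1 (0.12 to 0.50). For Insig1 it was 0.11 (−0.02 to 0.24), and for Dhcr7 it was −0.90 (−1.38 to −0.42). Cell depth changed most of these. In thinned cells it was 1.05 for Fdft1, 0.31 for Fdps, 0.44 for Hmgcs1, 0.023 for Sqle, −0.0029 for Cyp51, −0.10 for Idi1, −0.30 for Insig1 and −1.38 for Dhcr7. In cells of 5000 to 10000 UMIs it was 1.10 for Fdft1, 0.28 for Fdps, 0.30 for Hmgcs1 and 0.36 for Sqle. Cyp51 was at −0.084 there, Idi1 at −0.050, Insig1 at 0.13 and Dhcr7 at −1.05. In the fibroblast gate the interval lay above 0 for Cyp51 at 1.40 (0.56 to 2.24), for Fdps at 1.21 (0.73 to 1.70) and for Insig1 at 0.39 (0.04 to 0.74). These fibroblast values were 2.20, 0.94 and 0.58 in thinned cells. In cells of 5000 to 10000 UMIs they were 2.54, 0.57 and 1.72. Among phagocyte gate cells only the interval of Insig1 excluded 0, at −0.82 (−1.41 to −0.24). It was −0.88 in thinned cells and −1.69 in cells of 5000 to 10000 UMIs.

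Other enzymes of the pathway, a list of 14 that leaves out the 8 members, mostly stood above 0 in KO against WT with AngII. This held for 14 of 14 in the SMC and fibroblast gates and for 9 of 11 measured in the phagocyte gate. In the SMC gate 9 of 14 were at least 1.5-fold higher and 0 lower (median 0.66), in the fibroblast gate 11 of 14 and 0 (median 0.998), and in the phagocyte gate 5 of 11 measured and 0 (median 0.46). Of all genes 5.37, 6.26 and 4.02% were higher in these gates. Msmo1, the sterol methyl oxidase that acts after Cyp51, was at 27.4, 45.6, 33.4 and 91.0 CPM in the SMC gate, a KO to WT log2 ratio in AngII of 0.998. Mvd, mevalonate diphosphate decarboxylase, was at 2.40, 5.26, 3.85 and 12.1 CPM (1.20), and Hsd17b7, a sterol ketoreductase, at 2.15, 5.86, 3.49 and 12.6 CPM (1.11). Each of the 3 was highest in KO AngII.

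With AngII against saline the other enzymes gave 6 higher and 0 lower of 14 in WT and 10 and 0 of 14 in KO in the SMC gate. The shares of all genes there were 13.1% higher and 16.6% lower in WT, and 10.8% and 18.9% in KO. Fibroblast gate counts were 3 higher and 2 lower of 11 in WT (15% and 21.4% of all genes) and 5 and 0 of 13 in KO (14.4% and 29.4%). Phagocyte gate counts were 1 and 2 of 10 in WT (13.5% and 16.1% of all genes) and 5 and 1 of 10 in KO (16.5% and 15.9%). With saline in both genotypes, 3 of 14, 2 of 7 and 0 of 2 measured enzymes were higher in KO in the 3 gates and 0 were lower. Of all genes 7.47, 11 and 8.07% were higher there. Hsd17b7 had a log2 ratio of AngII to saline of 1.44 in WT in the SMC gate.

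**Figure D4:**
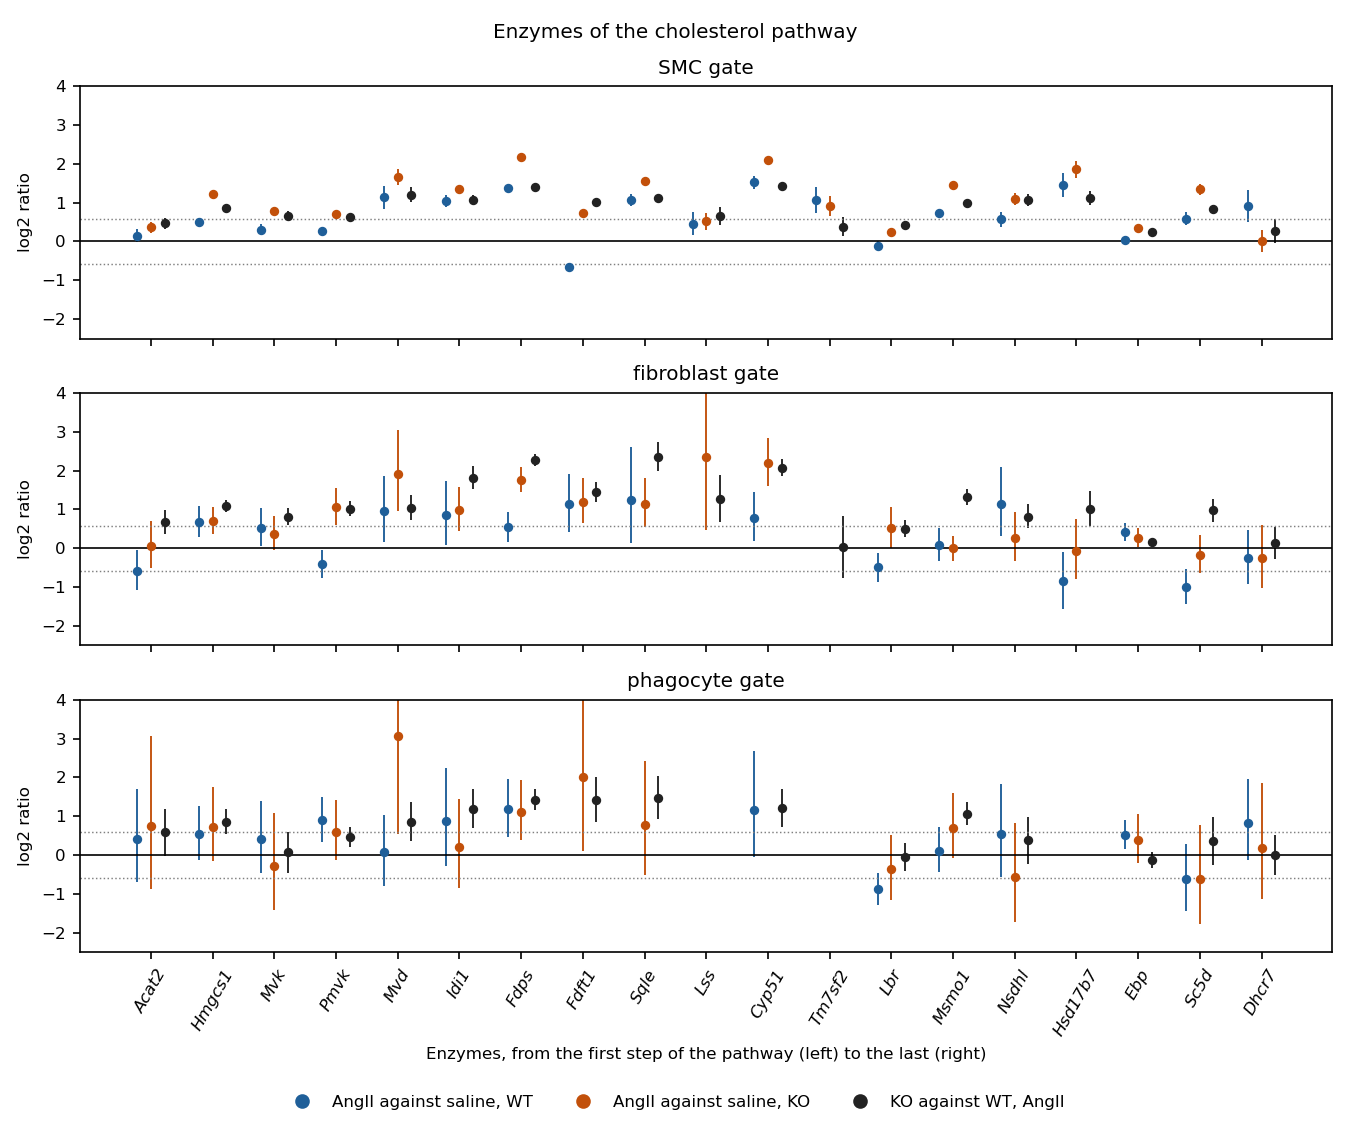
Log2 ratio of cholesterol synthesis enzymes in pathway order (horizontal axis) for AngII against saline in WT and in KO and for KO against WT with AngII, by gate; missing points had under 50 UMIs over both libraries or a library at 0. KO against WT with AngII lies above 0 along most of the pathway, with Dhcr7 near 0 in all 3 gates.

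Of 11 genes that control SREBP, Insig1 apart, 0 were past 1.5-fold in either direction in KO against WT with AngII in the SMC gate, and 1 was higher in each of the other gates. That gene was Srebf2 in both. With AngII against saline in WT, 4 of the 11 were higher and 0 lower in the SMC gate (13.1% and 16.6% of all genes). Among them were Srebf2 at 0.65, Erlin1 at 0.81 and Erlin2 at 0.66 on the log2 scale, and the list median was −0.01. In KO the same comparison gave 0 in either direction. Srebf2 in the fibroblast gate was at 11.4, 14.4, 25.5 and 28.6 CPM, and its KO to WT log2 ratios were 0.99 in AngII (0.78 to 1.20) and 1.16 in saline (0.59 to 1.73). Srebf2 in the phagocyte gate was at 12.4, 16.3, 27.1 and 28.0 CPM (0.78 in AngII, 0.40 to 1.16), and in the SMC gate at 17.7, 27.9, 29.6 and 35.8 CPM (0.36). Insig2, the other INSIG gene, was at 142, 66.9, 85.7 and 50.0 CPM in the fibroblast gate and at 118, 84.5, 85.9 and 73.0 CPM in the SMC gate, highest in WT saline in both. Phagocyte gate levels of Insig2 were 41.9, 38.7, 47.9 and 35.7 CPM.

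Sterol uptake and transport was mixed, with 3 higher and 2 lower of 17 in the SMC gate, 5 and 2 of 17 in the fibroblast gate and 2 and 1 of 15 in the phagocyte gate for KO against WT with AngII. For this comparison, here and for the lists below, 5.37, 6.26 and 4.02% of all genes were higher. The shares lower were 5.95, 15.6 and 6.48%. Vldlr, a lipoprotein receptor gene, was lower with AngII in the fibroblast gate, at 52.5, 18.8, 48.5 and 6.45 CPM. Tmem97, a regulator of the cholesterol transporter NPC1, was at 8.51, 24.6, 18.2 and 60.0 CPM in the same gate.

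Sterol efflux and storage leaned lower in KO with AngII: 0 higher and 2 lower of 11 in the SMC gate, 1 and 6 of 12 in the fibroblast gate and 0 and 4 of 11 in the phagocyte gate. Of all genes 5.95, 15.6 and 6.48% were lower in these gates. Apoe, which carries cholesterol out of cells in lipoproteins, was at 2097, 714, 2381 and 259 CPM in the fibroblast gate, at 19997, 18312, 12833 and 9958 CPM in the phagocyte gate and at 233, 204, 179 and 107 CPM in the SMC gate. KO AngII had the lowest Apoe level in every gate. The exporter gene Abca1 was at 99.9, 43.0, 36.0 and 17.9 CPM in the fibroblast gate, and Abcg1 at 21.6, 48.5, 8.34 and 21.6 CPM in the phagocyte gate. Cyp27a1, which converts cholesterol to an oxysterol, was at 5.85, 1.93, 4.50 and 1.44 CPM in the SMC gate, lower in both AngII libraries.

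Fatty acid synthesis, which SREBP-1 controls, gave 3 higher and 0 lower of 16 in the SMC gate, 4 and 0 of 15 in the fibroblast gate and 2 and 0 of 11 in the phagocyte gate in KO against WT with AngII. The branch that uses isoprenoids for other products gave 0 of 14, 1 of 14 and 1 of 11 higher and 0 lower. Genes of the circadian clock and its output, listed because the pathway has a daily rhythm in liver, gave 3 higher and 1 lower of 14 in the SMC gate, 1 and 7 of 13 in the fibroblast gate and 2 and 0 of 11 in the phagocyte gate. In other comparisons the libraries stood far apart on single clock genes. Dbp, a clock output gene, was at 13.7, 11.4, 58.7 and 10.9 CPM in the SMC gate, high in KO saline. Nr1d1, a repressor of the clock loop, was at 22.0, 60.7, 118 and 86.4 CPM in the SMC gate and 5.59, 28.3, 84.8 and 45.5 CPM in the fibroblast gate, also highest in KO saline and lowest in WT saline. With saline, 4 clock genes were higher and 4 lower of 14 in KO in the SMC gate (7.47% and 6.36% of all genes). The part of the clock genes' differences in the member values was not tested. Cycling cell markers summed to 3.45, 24.4, 3.76 and 68.3 CPM in the SMC gate, 3.89, 99.5, 14.1 and 157 CPM in the fibroblast gate and 106, 261, 233 and 245 CPM in the phagocyte gate. They were higher in KO AngII than in WT AngII in the SMC and fibroblast gates, and their part in the result was not tested.

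More SMC and fibroblast gate cells carried a member UMI in KO AngII than in the other libraries. In cells thinned to 3000 UMIs, which left out 227 and 1190 shallower cells of the WT saline and KO saline SMC gates and 0 of the others, 30.9, 39.2, 40.8 and 58.0% of SMC gate cells had at least 1 UMI of the 8 genes. Shallower cells left out numbered 354 and 173 in the saline fibroblast gates and 28 and 12 in the saline phagocyte gates. Unthinned SMC gate shares were 55.1, 75.9, 64.6 and 82.0%. In the fibroblast gate the thinned shares were 24.9, 23.0, 36.0 and 47.2% (unthinned 29.2, 51.2, 45.1 and 79.3%), and in the phagocyte gate 19.1, 26.0, 42.3 and 39.6% (unthinned 33.7, 54.3, 62.7 and 66.8%). For Fdps alone the thinned SMC gate shares were 6.98, 14.8, 10.2 and 28.2%, and for Dhcr7 they were 0.395, 0.880, 0.937 and 0.917%. Nearly every cell type makes sterols, so no cell type of the aorta served as a background for these shares.

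The members were spread more unevenly over cells than random capture alone would give in most libraries and gates. A Fano factor, the variance of counts over their mean, is 1 for random capture alone. For the sum of the 8 genes in thinned cells it was 1.20, 1.55, 1.23 and 2.04 in the SMC gate, 1.03, 1.59, 1.39 and 2.73 in the fibroblast gate and 1.37, 1.41, 3.97 and 2.03 in the phagocyte gate. The 3.97 came from the KO saline phagocytes, the smallest set of cells. The variance of the sum over the summed variances of the 8 genes, which exceeds 1 when they occur in the same cells, was 1.12, 1.32, 1.08 and 1.54 in the SMC gate, 1.06, 1.32, 1.08 and 1.88 in the fibroblast gate and 0.918, 1.22, 0.936 and 1.46 in the phagocyte gate. Both AngII libraries were above both saline libraries in each gate. Where cells differ in level, both measures also rise with the mean count. No adjustment was made for the mean, so these values do not rank the libraries by unevenness. The 10% of SMC gate cells with the most member UMIs held 46.8, 46.2, 42.9 and 39.3% of them.

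In the SMC gate of KO AngII the members also took a larger part of the RNA of deeper cells. Their sum there was 214 CPM in cells under 5000 UMIs, 316 CPM at 5000 to 10000, 543 CPM at 10000 to 20000 and 730 CPM at 20000 or more. In WT AngII the same bins gave 212, 183, 229 and 261 CPM, a smaller rise from 5000 UMIs up. In the bins under 20000 UMIs WT saline gave 123, 134 and 152 CPM and KO saline 235, 180 and 187 CPM. In cells under 5000 UMIs the 2 AngII libraries were alike, and they parted in each deeper bin. The WT AngII value under 5000 UMIs rests on 115 member UMIs from 123 cells. In the fibroblast gate the KO AngII bins gave 373, 309, 345 and 408 CPM, a rise only from 5000 UMIs up. WT AngII gave 68.1, 90.2, 126 and 128 CPM there. In that gate KO AngII was higher in every bin.

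**Figure D5:**
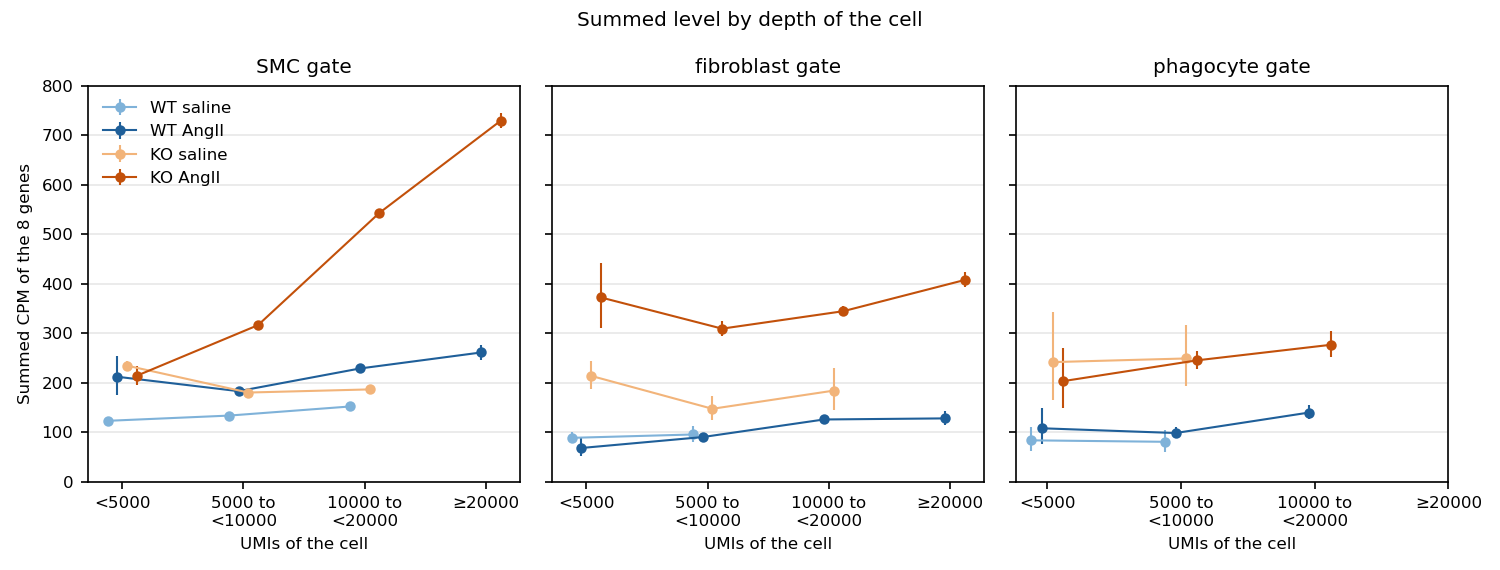
Summed level of the 8 genes (CPM) by the total UMIs of the cell, in 4 bins, for each library and gate. In the SMC gate KO AngII climbs from 214 to 730 CPM while WT AngII stays between 183 and 261 CPM; in the fibroblast gate KO AngII is above WT AngII in every bin.

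Levels of a gene also differed between gates of 1 library. In WT AngII the SMC gate was above the fibroblast gate for Sqle by 2.34 on the log2 scale (2.0 to 2.70), for Fdps by 1.51 (1.37 to 1.66) and for Hmgcs1 by 1.01 (0.86 to 1.16). Insig1 and Dhcr7 ran the other way, at −0.39 (−0.53 to −0.24) and −0.89 (−1.27 to −0.50). In KO AngII the same gap between gates was 1.11 for Sqle (0.97 to 1.25), 0.63 for Fdps (0.57 to 0.69) and 0.19 for Cyp51 (0.09 to 0.30). Dhcr7 had its highest AngII level in the phagocyte gate in both genotypes.

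Over the 12 profiles of library and gate, the 8 genes were compared as log2(CPM + 1). Pearson's r of a member with the mean of the other 7 was 0.96 for Fdps, 0.95 for Idi1, 0.92 for Sqle, 0.89 for Hmgcs1, 0.63 for Fdft1 and 0.56 for Cyp51. It was 0.28 for Insig1 and −0.23 for Dhcr7. Among 7835 genes outside the 8 with a mean of at least 10 CPM, the 10 with the profile most like the members' mean included Tubb4b (0.92), Srebf2 (0.91), Eif3i (0.90), Hspd1 (0.90), Ccdc124 (0.89), Msmo1 (0.89), Stk40 (0.89), Psmd13 (0.87) and Selt (0.86). These include the SREBP-2 gene and 1 further synthesis enzyme beside genes of tubulin, translation, protein folding and the proteasome. The list also holds genes outside these classes, such as Stk40. The 12 profiles come from 4 libraries and share their depth, so these values describe the libraries and carry no p.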

How the data were processed

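UMI counts per gene and cell were measured with 10x Genomics 3′ chemistry in 4 libraries, 1 per group. The deposited tables held raw counts, made by the authors with Cell Ranger on mm10, per the submitters' processing notes; version not given in the sources used here. No cell in the deposited tables had over 4998 genes or 24.8% mitochondrial counts. No further filter and no doublet caller was applied. Counts were summed over gate cells and divided by the gate's UMIs (CPM). Poisson intervals of levels, and conditional binomial intervals of ratios, were exact at 95% and cover counting error only. Counts of genes used at least 50 UMIs over both libraries and 1.5-fold. A count of 0 was set to 3 UMIs for the point value of a ratio. The members and lists were chosen with earlier results of these data known. Named genes were the 8 members, Srebf2, the 10 genes of most alike profile and, per list, comparison and gate, the 3 whose interval ended farthest from 0; some are not reported here, though list counts include them. Alternatives used scaling factors of edgeR 4.0.16 and DESeq2 1.42.0 (R 4.3.3), thinning, depth bins and stricter gates; Python 3.11.15, numpy 2.4.6 and scipy 1.17.1 did the rest. The steps were tested on simulated data.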

Additional observations from a re-analysis of the deposited data

Results flagged for a closer look

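The ratio of AngII to saline for Fdft1 in the SMC gate was below 0 in WT (−0.67) and above 0 in KO (0.74), a gap of 1.41 on the log2 scale. The difference was not tested, since each group had 1 library. At 5000 to 10000 UMIs per cell the gap was 1.10.

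Cells in no gate (426, 271, 1110 and 480 cells, in the same order of libraries) entered no comparison above. The 8 genes summed to 113, 165, 241 and 506 CPM there. AngII was above saline by 0.54 on the log2 scale in WT and by 1.07 in KO. These differences were not tested either.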

How the results depend on the processing

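No paired analysis was possible because each group had 1 library; for the same reason no library could be left out. Of 304 counts of members past 1.5-fold under the alternatives, 271 stayed within 1.5 times and 33 did not, and the cause was not tested. The count of 7 members higher in KO with AngII was 7 or 6 in the SMC gate at every setting. Under TMM and median-of-ratios scaling the lower count in SMC gate WT was 0 in place of 1; these scalings moved the all-gene median by up to 0.24 (fibroblast gate, KO). With no UMI minimum, 7 of 8 members were higher in KO saline in the fibroblast gate (3 before). In the phagocyte gate 7 of 8 were (1 before), among them Cyp51. Its 0 UMIs in KO saline were set to 3 UMIs, and it passed 1.5-fold only by that setting. With at least 200 UMIs the higher counts in AngII against saline were 2 of 4 (fibroblast gate, WT), 0 of 1 (phagocyte gate, WT) and 1 of 2 (phagocyte gate, KO); those in KO against WT were 1 of 1 (fibroblast gate, saline), 3 of 3 (phagocyte gate, AngII) and 0 of 0 (phagocyte gate, saline). Without the 10% of cells with most UMIs, and with stricter gates, the fibroblast gate in WT gave 2 of 7 and 2 of 8. After thinning it gave 0 higher and 1 lower of 4, and the phagocyte gate gave 0 of 1 (WT), 2 of 3 (KO) and 3 of 3 (KO against WT, AngII). In cells of 5000 to 10000 UMIs the counts were 2 of 5 (fibroblast gate, WT), 1 of 2 (fibroblast gate, saline), 2 of 3 (phagocyte gate, WT) and 2 of 4 (phagocyte gate, KO). At 2-fold they were 0 lower (SMC gate, WT), 2 (SMC gate, saline), 2 (fibroblast gate, WT), 2 (phagocyte gate, WT), and 3 higher with 0 lower (phagocyte gate, KO). 2 alternatives were chosen after seeing the data. Without fibroblast gate cells holding a Cxcl1, Ccl7 or Fst UMI, counts were 1 higher and 1 lower of 3 (WT), 2 higher and 1 lower of 3 (KO), 4 of 4 (KO against WT, AngII) and 1 of 1 (saline); without phagocyte gate cells of the SMC gate, no count moved that far. Among ratios past 1.5-fold and differences whose interval left out 0, the sign turned for 7 values: the KO minus WT difference of Idi1 (−0.10 thinned, −0.050 at 5000 to 10000 UMIs) and Cyp51 (−0.0029 thinned, −0.084 at 5000 to 10000 UMIs) in the SMC gate and of Insig1 in the fibroblast gate (−0.074 without the cells with a Cxcl1, Ccl7 or Fst UMI), and AngII against saline in WT in the fibroblast gate for Hmgcs1 (−0.069 thinned) and Cyp51 (−0.26 at 5000 to 10000 UMIs). Smaller values turned too: Insig1 with AngII in KO in the SMC gate was −0.23 after thinning. Few UMIs in saline fibroblasts and phagocytes limit every value that rests on them.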

Other observations

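In all 4 libraries, fibroblast gate cells with a UMI of Cxcl1, Ccl7 or Fst had a higher summed member level than those without. The intervals overlapped in WT AngII and KO saline. After thinning to 3000 UMIs the sums were 129 against 81.5 CPM in WT saline, 106 against 93.8 CPM in WT AngII, 203 against 163 CPM in KO saline and 341 against 256 CPM in KO AngII. A split by a UMI of Saa3 or Mmp3, genes of inflammation, was also made. The sums were 90.2 against 98.0, 99 against 102, 189 against 175 and 325 against 328 CPM in the same order. Intervals overlapped in each library. Cthrc1, a gene of activated matrix-making fibroblasts, gave 320 CPM in KO AngII cells with a UMI and 345 CPM in cells without, with overlapping intervals.

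SMC gate cells with a UMI of Spp1, the osteopontin gene, had 483 CPM in KO AngII against 393 CPM in cells without one, and 207 against 200 CPM in WT AngII. For the adhesion gene Vcam1 the KO AngII values were 463 and 395 CPM the KO saline values 229 and 188 CPM, and the WT AngII values 195 and 202 CPM. In the phagocyte gate of KO AngII, cells with an Spp1 UMI were lower, at 171 against 261 CPM, and cells with and without a UMI of Lyve1, a marker of resident macrophages, were at 239 and 236 CPM. For Lyve1 the values were 84.7 and 120 CPM in WT AngII and 138 and 322 CPM in KO saline, lower in the cells with a UMI but with overlapping intervals. These are cells of single libraries, and no difference was tested.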
